A study of Mus musculus with 2 samples.

Results

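The genes described here are 10 matrix proteases and inhibitors measured in mouse liver cells: the matrix metalloproteinases Mmp2, Mmp7, Mmp9, Mmp12, Mmp13 and Mmp14, the membrane protease Adam8, and the tissue inhibitors of metalloproteinases Timp1, Timp2 and Timp3. They were taken as a fixed list, and all 10 were found among the 19059 genes of the probe set. The genes were chosen by their levels and differences in these same libraries, so the values below describe them and test nothing. The study compared mice that lack AEG-1 (astrocyte elevated gene-1, the product of Mtdh) in myeloid cells, called AEG-1DMAC, with floxed littermates, called AEG-1fl/fl. Both groups carry the floxed Mtdh alleles and have a C57BL/6J background, and the deletion is driven by Cre from the Lyz2 locus, which acts in macrophages and also in other myeloid cells such as neutrophils. A high-fat and high-sugar diet (HF/HSD) was started in both groups at an age of 7 weeks and lasted 20 weeks, so the livers were taken at 27 weeks. Fixed liver cells were profiled with gene-specific probes in 1 library per genotype. Whether a library pools several livers is not given in the sources used here, and with no replicate library no difference could be tested.

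Matrix metalloproteinases are secreted or membrane-bound enzymes that use zinc to cut collagens, elastin, basement membrane and many signalling proteins outside the cell. They are made as inactive proenzymes, and TIMPs bind and block their active forms. In the injured liver, stellate cells lay down collagen and make TIMPs, while macrophages and neutrophils bring in proteases that can degrade matrix, so the balance between them bears on how scar tissue builds up and resolves.

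After filtering, 2571 cells with 79483780 counts remained in the library labelled AEG-1DMAC and 3508 cells with 90081981 counts in the library labelled AEG-1fl/fl, and 10 cell barcodes occurred in both. Each cell was assigned to a gate by fixed marker genes, none of them a listed protease or inhibitor, and 9 gates held at least 50 cells. A gate's own markers were among its 10 leading genes in every one of the 9, which follows from the assignment and is no check of the names. Thy1, a marker listed for portal fibroblasts, was among those of T and NK-like cells. The cells are called macrophage-like, stellate cell-like and so on. The library labelled AEG-1DMAC held 277 macrophage-like, 195 stellate cell-like, 330 endothelial-like, 36 cholangiocyte-like and 16 neutrophil-like cells. The library labelled AEG-1fl/fl held 692, 309, 409, 115 and 68 of them. Levels are counts of a gene scaled to 1000000 counts of a gate (CPM) with 95% Poisson intervals. Hepatocyte markers were found in every gate: they summed to between 39194 and 129125 CPM in the 8 other named gates, against 124023 and 117316 CPM in hepatocyte-like cells. Intervals throughout cover counting error only, not differences between mice. Probes differ in efficiency between genes, so a level is compared across gates and libraries for 1 gene and not between genes.

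Mtdh itself went against the labels. Its level in macrophage-like cells was 115 CPM (interval 102 to 129, 298 counts) in the library labelled AEG-1DMAC and 25.7 CPM (21.8 to 30.1, 152 counts) in the library labelled AEG-1fl/fl. Stellate cell-like cells had 77.1 and 87.1 CPM and hepatocyte-like cells 61.5 and 57.3 CPM. Mtdh was thus lower in macrophage-like than in stellate cell-like cells only of the library labelled AEG-1fl/fl. Which exons the Mtdh probes cover is not given in the sources used here. For this reason every direction below names the library by its label, and a log2 ratio is always the library labelled AEG-1DMAC over the library labelled AEG-1fl/fl.

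The 10 genes fell into 5 source gates, the source being the gate with the highest level over both libraries among the 9 gates of at least 50 cells. Portal fibroblast-like cells, with 17 and 11 cells, were left out of this, and had higher levels than the source for Mmp2 (178 and 186 CPM), Timp1 (144 and 149 CPM), Timp2 (305 and 328 CPM) and Timp3 (635 and 760 CPM). Macrophage-like cells were the source of Mmp12, Adam8 and Mmp13, neutrophil-like cells of Mmp9, and cholangiocyte-like cells of Mmp7. Stellate cell-like cells were the source of Mmp2, Timp1 and Timp2, and endothelial-like cells, closely followed by stellate cell-like cells, of Mmp14 and Timp3. The same gate came first in both libraries for 6 of 10 genes. For Mmp14, Timp3 and Adam8 the first 2 gates changed places between the libraries, and for Mmp13 the first gate in the library labelled AEG-1DMAC rested on 3 counts. The level in the source was between 4.85 and 1189 times that in hepatocyte-like cells, with Mmp14 at the low end and Mmp7 at the high end.

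**Figure D1:**
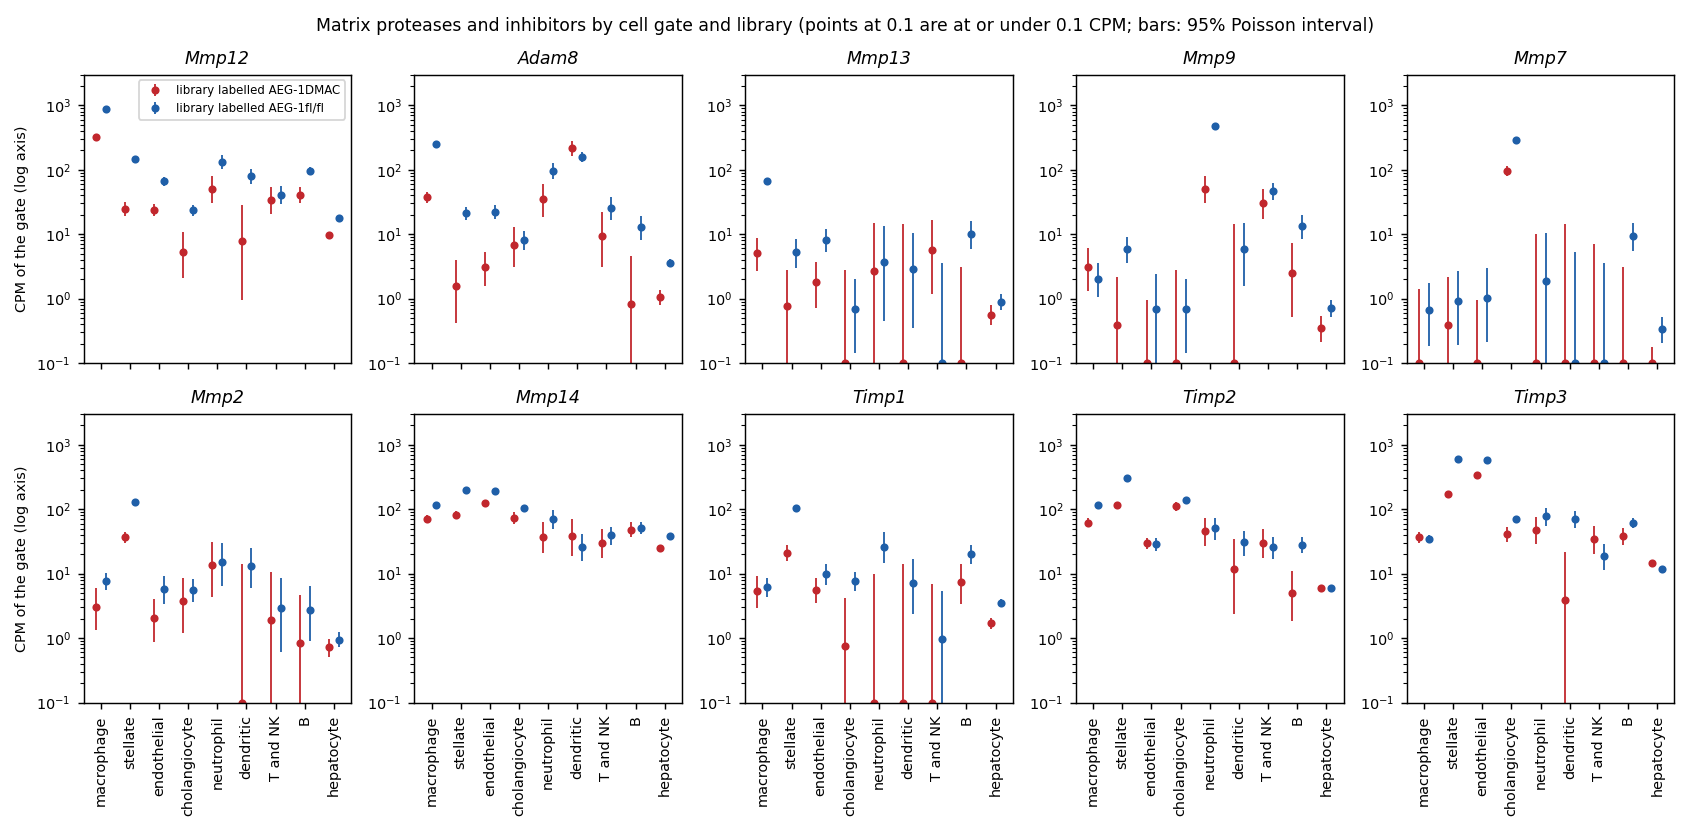
Level of each gene (CPM, log axis) in the 9 cell gates, with red points for the library labelled AEG-1DMAC, blue points for the library labelled AEG-1fl/fl and bars for 95% Poisson intervals. Mmp7 stands out in cholangiocyte-like cells (96.1 and 292 CPM), while Mmp14 was found in every gate, from 24.6 to 124 CPM in red and from 26.1 to 196 CPM in blue.

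Because hepatocyte-like cells hold most of the RNA, a gene's source gate did not always hold most of its counts. Mmp7 was the most restricted, with 73.3% of its counts in cholangiocyte-like cells of the library labelled AEG-1DMAC and 92.5% in the other library. At the other end, 48.0% and 40.7% of Mmp14 counts lay in hepatocyte-like cells and only 16.6% and 10.2% in its endothelial source. For Mmp12 the macrophage share was 39.5% and 49.9%, and for Mmp13 it was 17.1% and 64.1%.

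**Figure D2:**
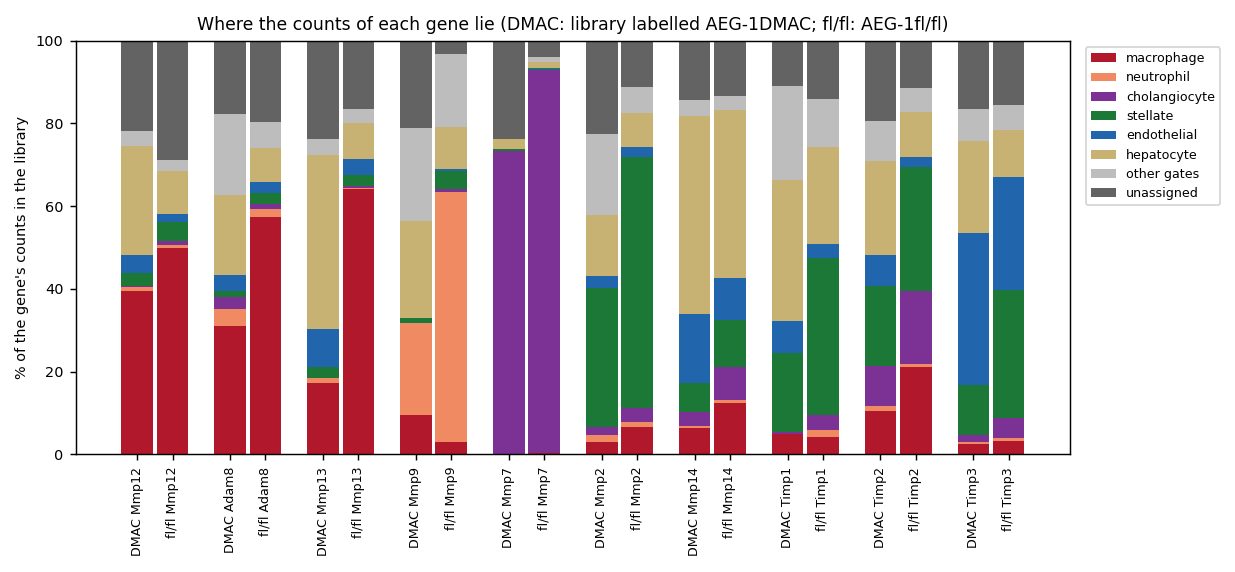
Share of each gene's counts (%) by cell gate, with 1 bar per gene and library. Purple cholangiocyte-like cells fill most of the Mmp7 bars (73.3% and 92.5%), and the sand-coloured hepatocyte-like cells take 48.0% and 40.7% of Mmp14.

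Mmp12, the macrophage elastase, had the most counts of the 3 proteases of macrophage-like cells. It was at 325 CPM (303 to 347, 840 counts) in the library labelled AEG-1DMAC and 877 CPM (853 to 901, 5190 counts) in the library labelled AEG-1fl/fl, a log2 ratio of -1.43 (-1.54 to -1.33). Adam8, a membrane protease of leukocytes that sheds adhesion molecules and receptors, had 37.1 CPM (30.0 to 45.3) against 250.1 CPM (238 to 263), a log2 ratio of -2.75 (-3.07 to -2.45). Mmp13, the main interstitial collagenase of rodents, had 5.02 CPM (13 counts) against 67.2 CPM (398 counts), a log2 ratio of -3.74 (-4.66 to -2.95). The intervals of the 2 libraries did not overlap for any of these 3 genes. Both non-source genes with many counts here, Mmp14 and Timp2, were also lower in the library labelled AEG-1DMAC, at log2 ratios of -0.74 (-0.98 to -0.50) and -0.93 (-1.18 to -0.68). Timp3 was at 36.7 and 34.5 CPM in macrophage-like cells, with overlapping intervals.

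Of the 9 listed genes with at least 20 counts in macrophage-like cells, 4 were at least 2-fold lower in the library labelled AEG-1DMAC (Adam8, Mmp2, Mmp12 and Mmp13) and none was 2-fold higher. The background, over the 11364 genes with at least 20 counts in these cells, was 3.81% lower and 2.13% higher. The median log2 ratio was -0.93 for the 9 genes and -0.08 for all genes. Mmp2 had only 8 and 45 counts in macrophage-like cells, a log2 ratio of -1.30 (-2.59 to -0.20). In these cells, genes of stellate cell activation summed to 294 and 619 CPM and stellate cell markers to 648 and 521 CPM. Their part in Mmp2 was not tested. Hepatocyte markers summed to 64186 CPM in macrophage-like cells of the library labelled AEG-1DMAC and 39194 CPM in the other. With the hepatocyte profile of each library subtracted, the log2 ratio of Mmp12 was -0.98 and that of Adam8 was -2.30.

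A count of Mmp12 was found in 30.0% of macrophage-like cells (24.6% to 35.7%, exact binomial interval) in the library labelled AEG-1DMAC and in 46.1% (42.3% to 49.9%) in the library labelled AEG-1fl/fl, and the 10 cells with most held 66.3% and 37.4% of its counts. The shares for Adam8 were 9.03% (5.93% to 13.03%) and 29.2% (25.8% to 32.7%), with 83.3% and 32.5% of its counts in the top 10 cells, and for Mmp13 they were 2.89% (1.25% to 5.61%) and 9.83% (7.71% to 12.3%). In the library labelled AEG-1fl/fl, 1 cell held 77 of the 398 Mmp13 counts. The median macrophage-like cell had 5407 counts in the library labelled AEG-1DMAC and 5618 in the other. With every cell thinned to 1500 counts, the shares were 18.7% and 30.1% for Mmp12, 4.30% and 16.7% for Adam8, and 0.555% and 4.80% for Mmp13. Hepatocyte-like cells, which should lack Mmp12, had a count of it in 24.6% and 31.4% of cells at median depths of 25229 and 22247 counts, and in 1.98% and 3.08% after thinning.

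Macrophage-like cells were split at the median of a score of 8 genes of the Gpnmb program, a set of lipid-handling and lysosomal genes of macrophages in injured tissue that holds none of the listed genes. The program itself was at 1704 CPM in the library labelled AEG-1DMAC and 5066 CPM in the library labelled AEG-1fl/fl, with 78 of 277 and 406 of 692 cells above the median. Mmp12 and Adam8 followed it: Mmp12 was 12.9-fold and 6.09-fold higher above the median than below it, and Adam8 42.7-fold and 13.4-fold higher. The first Adam8 fold rested on 90 counts above the median and 6 at or below it. Split at the upper quartile, the Adam8 folds were 20.5 and 10.6. Among the cells above the median, Mmp12 was at 1022 CPM in the library labelled AEG-1DMAC and 1315 CPM in the library labelled AEG-1fl/fl, a log2 ratio of -0.36 (-0.48 to -0.25), against -1.43 in all macrophage-like cells. At or below the median it was at 79.4 and 216 CPM, a log2 ratio of -1.44 (-1.71 to -1.18), as large as in the whole gate. Adam8 had a log2 ratio of -1.57 (-1.89 to -1.26) above the median, with 134 and 396 CPM, and of -3.24 (-4.74 to -2.05) at or below it, with 3.13 and 29.6 CPM. Mmp13 was 2.44-fold and 2.52-fold higher above the median, and its log2 ratio was -3.31 (-4.77 to -2.17) above the median and -3.26 (-4.62 to -2.16) below it. Its counts in the library labelled AEG-1DMAC were only 6 above the median and 7 at or below it. The Mmp13 folds at the upper quartile were 1.77 and 1.32. The score has no gap at the cut, with 112 of 969 cells within 0.25 log2 units of it.

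**Figure D3:**
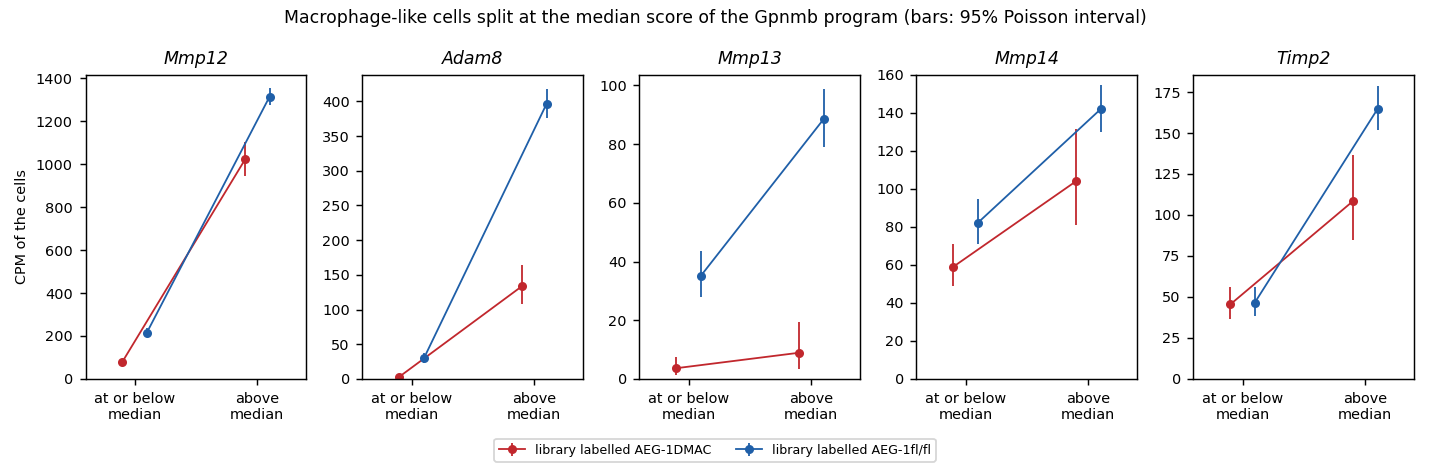
Levels (CPM) of 5 genes in macrophage-like cells at or below and above the median score of the Gpnmb program, red for the library labelled AEG-1DMAC, blue for the library labelled AEG-1fl/fl, bars for 95% Poisson intervals. Mmp12 reaches 1022 and 1315 CPM above the median, whereas Mmp13 stays at 8.92 CPM in red and reaches 88.5 CPM in blue.

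A second split used 7 genes of Kupffer cell identity, the resident macrophages of the liver. The program summed to 13774 CPM and 12302 CPM. On the CPM scale, the difference in Mmp12 was larger among cells above its median (295 and 1189 CPM, log2 ratio -2.01, -2.17 to -1.85) than at or below it (351 and 624 CPM, log2 ratio -0.83, -0.98 to -0.69). Adam8 differed by a log2 ratio of -3.52 and -2.36 in these subsets, and Mmp13 by -4.26 and -3.31, with wide intervals of -5.90 to -3.02 and -4.54 to -2.30. As a mean over cells of scaled counts, the subsets were closer for each gene. The log2 ratios above and at or below the median were then -1.27 and -1.03 for Mmp12, -2.55 and -2.17 for Adam8, and -4.79 and -4.07 for Mmp13.

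Adam8 was also found in dendritic-like cells, of which there were 26 and 57. Its level there was 214 CPM (161 to 278, 55 counts) in the library labelled AEG-1DMAC and 158 CPM (130 to 191, 109 counts) in the library labelled AEG-1fl/fl, a log2 ratio of 0.43 with an interval of -0.06 to 0.92. Per count of dendritic cell markers it was 0.74 (0.24 to 1.22), and without the 5 cells with most Adam8 counts in each library it was -0.32. The direction of Adam8 in dendritic-like cells was thus not the same under each of these readings.

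Mmp12, Mmp13 and Mmp7 are neighbours in a cluster of 10 Mmp genes on chromosome 9 (chr9:7272514-7699585, GRCm38, all coordinates 1-based), of which 9 were probed. Mmp13 (chr9:7272514-7283331) and Mmp12 (chr9:7344381-7369499) lie toward one end and Mmp7 (chr9:7692090-7699585) at the other. The other 7 listed genes are spread over the genome, with Adam8 at chr7:139978932-139992562, Mmp2 at chr8:92827291-92853420, Mmp9 at chr2:164940780-164955850, Mmp14 at chr14:54431612-54445364, Timp1 at chrX:20870166-20874735, Timp2 at chr11:118301069-118355740 and Timp3 at chr10:86300372-86349506. Their cell sources differ, and so do those of the other probed genes of the cluster. Mmp27 was in macrophage-like cells too, at 124 CPM (322 counts) and 159 CPM (944 counts), a log2 ratio of -0.36 (-0.54 to -0.17), against -1.43 for Mmp12 and -3.74 for Mmp13 in the same cells. Mmp8, the neutrophil collagenase, was highest in neutrophil-like cells with only 5 and 17 counts there. Mmp3 had 8 counts in all cells of the library labelled AEG-1DMAC and 0 in the other, and Mmp1b, Mmp10 and Mmp20 had 0 counts in both, which allows up to 3 counts per library.

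The promoter sequences of these 3 listed neighbours are shown because the AP-1 motif, bound by Fos and Jun family factors and long known from Mmp promoters, was found in at least 1 entry of each. The motif searched was TGAGTCA with its reverse complement TGACTCA, and it was chosen after the sequences had been seen. The sequences run 5′ to 3′ on the plus strand from 250 bases before to 50 bases after a RefSeq start site (GRCm38.p6), with the motif in capitals. The positions are chr9:7272264-7272563 for Mmp13, chr9:7347124-7347423 for the second of 2 entries of Mmp12, and chr9:7691840-7692139 for the first of 2 entries of Mmp7.
Mmp13: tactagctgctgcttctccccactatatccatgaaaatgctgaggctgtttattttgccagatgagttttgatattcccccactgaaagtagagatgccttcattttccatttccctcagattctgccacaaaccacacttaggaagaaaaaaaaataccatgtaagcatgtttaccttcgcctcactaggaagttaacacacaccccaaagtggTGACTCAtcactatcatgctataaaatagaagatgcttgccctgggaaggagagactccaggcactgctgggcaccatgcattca
Mmp12: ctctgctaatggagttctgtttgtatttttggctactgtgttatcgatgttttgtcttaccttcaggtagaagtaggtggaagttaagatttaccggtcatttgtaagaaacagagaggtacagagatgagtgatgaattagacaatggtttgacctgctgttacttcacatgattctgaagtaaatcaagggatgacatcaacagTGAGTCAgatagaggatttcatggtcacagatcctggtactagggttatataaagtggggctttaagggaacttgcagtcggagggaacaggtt
Mmp7: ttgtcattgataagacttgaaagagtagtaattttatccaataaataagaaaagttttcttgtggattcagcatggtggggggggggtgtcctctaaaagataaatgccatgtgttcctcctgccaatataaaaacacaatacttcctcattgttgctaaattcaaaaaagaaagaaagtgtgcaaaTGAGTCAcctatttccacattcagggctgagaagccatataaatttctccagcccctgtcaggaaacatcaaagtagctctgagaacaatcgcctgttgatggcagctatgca
The motif begins 35 bases before the start site in Mmp13, 44 bases before it in Mmp12 and 63 bases before it in Mmp7. The other entries of Mmp12 (chr9:7344147-7344446, at the gene start) and Mmp7 (chr9:7692091-7692390) do not hold it, and the Mmp12 entry shown lies inside the gene. It was found in 5.202% of the 32851 promoter sequences of the table. Among the listed genes, 8 have an entry (Mmp2 and Mmp9 do not), and the motif was in 3 of them, with no match in Adam8, Mmp14, Timp1, Timp2 or Timp3. Of the 10 genes of the cluster, 7 held it in at least 1 entry, while Mmp8, Mmp20 and Mmp27 did not. The letters TATAAA or their reverse complement, in 13.6% of all promoters, were found in the same 3 listed genes, beginning 16 bases before the start site in Mmp13, 26 and 123 bases before it in Mmp7, and after it in Mmp12. The shorter PEA3 motif (AGGAAG or its reverse complement, in 35.4% of all promoters) was in 6 of the 8.

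Mmp9, the gelatinase that neutrophils store in granules, was highest in neutrophil-like cells. It was at 51.0 CPM (30.7 to 79.7, 19 counts) in the library labelled AEG-1DMAC and 478 CPM (421 to 540, 254 counts) in the library labelled AEG-1fl/fl, a log2 ratio of -3.23 (-3.98 to -2.55). The gate held 16 and 68 cells, and Mmp9 was found in 5 and 48 of them. All 9 neutrophil markers were detected in both libraries, but they summed to 1332 CPM in the library labelled AEG-1DMAC and 9021 CPM in the other. Per 100 counts of these markers, Mmp9 had 3.83 and 5.29 counts, and the log2 ratio was -0.47 with an interval of -1.22 to 0.21. The lower Mmp9 in the library labelled AEG-1DMAC thus went with fewer neutrophil marker counts in the same cells. Of the 6 listed genes with at least 20 counts in neutrophil-like cells, Adam8, Mmp9 and Mmp12 were at least 2-fold lower in the library labelled AEG-1DMAC, against a background of 14.4%, and none was 2-fold higher, against 3.70%. For Mmp12, 1 cell held 47 of the 70 counts of the library labelled AEG-1fl/fl, and without the top cell of each library its log2 ratio was -0.33 (-1.43 to 0.71).

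T and NK-like cells were the next gate for Mmp9, at 30.4 CPM (17.4 to 49.3) and 46.1 CPM (33.9 to 61.4), with overlapping intervals. The counts lay in 9 of 56 and 17 of 109 cells. No neutrophil marker was detected in 9 of these 9 cells and in 16 of the 17, so in nearly all of them the markers of the other Mmp9 source were at 0. Hepatocyte-like cells had 0.352 and 0.709 CPM of Mmp9.

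In cholangiocyte-like cells, the lining of the bile ducts, Mmp7 (matrilysin) was among the 10 leading genes. Its level was 96.1 CPM (80.3 to 114, 129 counts) in the library labelled AEG-1DMAC and 292 CPM (276 to 309, 1256 counts) in the library labelled AEG-1fl/fl, a log2 ratio of -1.60 (-1.88 to -1.34). The share of cells with a count was 58.3% (40.8% to 74.5%) of 36 cells and 73.0% (64.0% to 80.9%) of 115 cells, and these intervals overlap. Cholangiocyte markers summed to 759 and 904 CPM, and per 100 of their counts Mmp7 had 12.7 and 32.3 counts, a log2 ratio of -1.35 (-1.62 to -1.09). Hepatocyte markers were at 129125 CPM in cholangiocyte-like cells of the library labelled AEG-1DMAC, above the 124023 CPM of its hepatocyte-like cells, and at 94711 CPM in the other library, and their part in the result was not tested. Without the 5 cells with most Mmp7 counts in each library, the log2 ratio was -2.12. Among 8 listed genes with at least 20 counts in this gate, Mmp7, Mmp12 and Timp1 were at least 2-fold lower in the library labelled AEG-1DMAC, where the background was 8.01%, and none was 2-fold higher, where it was 1.10%. Timp1 had only 1 and 33 counts. Mmp12 had 7 and 101 counts, 47 of the 101 in 1 cell. Without the top cell of each library its log2 ratio was -1.22 (-2.90 to 0.09). The 2 inhibitors with most counts here were closer between the libraries: Timp2 was at 110.3 and 137 CPM, a log2 ratio of -0.31 (-0.58 to -0.05), and Timp3 at 41.0 and 71.2 CPM, -0.80 (-1.24 to -0.38).

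In stellate cell-like cells, all 8 listed genes with at least 20 counts were at least 2-fold lower in the library labelled AEG-1DMAC. The background in this gate was 9.51% lower and 1.27% higher, and the median log2 ratio was -2.05 for the 8 genes and -0.26 for the 11336 genes. Timp1, an inhibitor made by activated stellate cells, was at 21.0 CPM (15.8 to 27.4, 54 counts) against 104 CPM (92.9 to 115, 338 counts), a log2 ratio of -2.30 (-2.74 to -1.88). Mmp2, a gelatinase of fibroblast-like cells, was at 36.6 CPM (29.6 to 44.8) against 127 CPM (115 to 140), a log2 ratio of -1.80 (-2.14 to -1.47). Timp2, which both blocks Mmp2 and takes part in its activation, was at 115 CPM (102 to 129) against 304 CPM (285 to 323), a log2 ratio of -1.40 (-1.60 to -1.21). Mmp14, the membrane-bound metalloproteinase that activates pro-Mmp2, was at 81.0 CPM (70.3 to 92.7) against 196 CPM (181 to 212), a log2 ratio of -1.27 (-1.51 to -1.05). Timp3, the inhibitor that stays bound to matrix, was at 175 CPM (159 to 192) against 593 CPM (567 to 620), a log2 ratio of -1.76 (-1.91 to -1.61). For these 5 genes, Mmp2, its activator Mmp14 and all 3 inhibitors, protease and inhibitor were lower in the same library and the intervals did not overlap. Hepatocyte markers summed to 93549 CPM in stellate cell-like cells of the library labelled AEG-1DMAC and 63592 CPM in the other. With the hepatocyte profile subtracted, the log2 ratios were smaller in size, at -1.47 for Timp1, -0.92 for Mmp2, -0.55 for Timp2, -0.59 for Mmp14 and -0.94 for Timp3. Of these 5 genes, only Timp1 was then still at least 2-fold lower.

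Adam8, Mmp9 and Mmp12 made up the other 3 of the 8, with only 4 and 69 counts for Adam8 and 1 and 19 for Mmp9. Of the 19 Mmp9 counts 11 lay in 1 cell, and without the top cell of each library Mmp9 had no ratio left. Mmp12 in stellate cell-like cells was at 24.9 and 149 CPM, and per 100 counts of macrophage markers in the same cells it had 0.882 and 5.41 counts, compared with 1.48 and 3.56 in macrophage-like cells. In the library labelled AEG-1fl/fl, 1 stellate cell-like cell held 300 of the 486 Mmp12 counts. Without the top cell of each library the levels were 20.8 and 58.5 CPM, the log2 ratio moved from -2.58 to -1.49 (-1.96 to -1.04), and Mmp12 had 0.753 and 2.24 counts per 100 macrophage marker counts. Macrophage markers summed to 2824 and 2754 CPM in the stellate cell-like gate, and their part in its Mmp12 was not tested. The gate's own markers were also lower in the library labelled AEG-1DMAC, at 7269 against 11214 CPM. Per count of these markers the log2 ratios were -1.68 for Timp1, -1.17 for Mmp2, -0.78 for Timp2, -0.65 for Mmp14 and -1.13 for Timp3, all with intervals below 0.

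The same cells were split by 7 genes of stellate cell activation, which summed to 4157 CPM in the library labelled AEG-1DMAC and 17383 CPM in the library labelled AEG-1fl/fl. Above the median lay 56 of 195 and 196 of 309 cells. All 5 genes were higher above the median in both libraries: Timp1 was 19.5-fold and 6.61-fold higher above the median than below it, Mmp2 9.51-fold and 10.7-fold, Timp2 3.89-fold and 3.76-fold, Timp3 3.57-fold and 4.48-fold, and Mmp14 2.87-fold and 2.52-fold. Among cells above the median, the log2 ratios between the libraries were -0.58 (-1.09 to -0.10) for Timp1, -0.46 (-0.89 to -0.06) for Mmp2, -0.53 (-0.83 to -0.25) for Timp2, -0.56 (-0.96 to -0.19) for Mmp14 and -1.01 (-1.25 to -0.78) for Timp3. Each of the 5 was smaller in size than in the whole gate. For Timp1 the library labelled AEG-1DMAC had 41 counts above the median, 20 of them in 1 cell, and 13 at or below it. Without the top cell of each library the whole-gate log2 ratio of Timp1 was -2.77 (-3.32 to -2.25). The split was not repeated without these cells. At or below the median the log2 ratio was -2.13 (-3.16 to -1.20) for Timp1, nearly that of the whole gate, -0.75 (-1.08 to -0.42) for Mmp14, -0.68 (-0.92 to -0.44) for Timp3 and -0.58 (-0.88 to -0.28) for Timp2. Mmp2 was not resolved between the libraries at or below the median, at 16.7 and 20.5 CPM with a log2 ratio of -0.29 (-1.02 to 0.44).

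**Figure D4:**
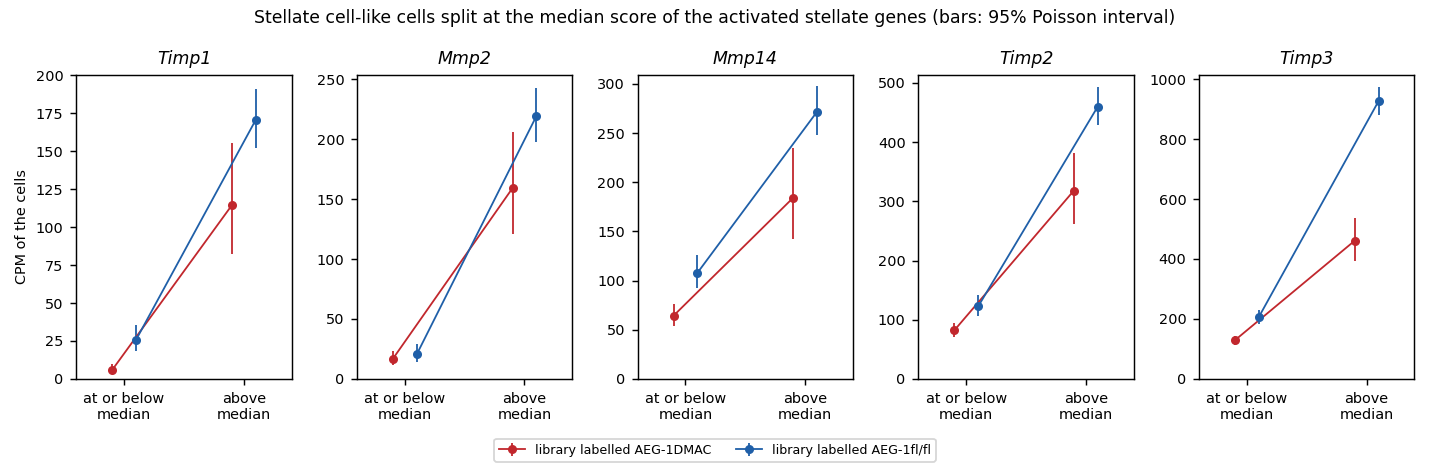
Levels (CPM) of 5 genes in stellate cell-like cells at or below and above the median score of the activation genes, red for the library labelled AEG-1DMAC, blue for the library labelled AEG-1fl/fl, bars for 95% Poisson intervals. All 5 are higher above the median in both libraries, and Timp3 shows the widest gap there (461 and 926 CPM).

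Endothelial-like cells were the first gate for Timp3 and Mmp14, with smaller differences between the libraries. Timp3 was at 345 CPM (327 to 364) in the library labelled AEG-1DMAC and 575 CPM (548 to 604) in the library labelled AEG-1fl/fl, a log2 ratio of -0.74 (-0.84 to -0.63), and Mmp14 at 124 CPM (113 to 135) and 195 CPM (179 to 212), a log2 ratio of -0.66 (-0.84 to -0.48). Per count of endothelial markers, which summed to 5310 and 8030 CPM, the log2 ratio of Timp3 was -0.14 (-0.24 to -0.04) and that of Mmp14 was -0.06 (-0.24 to 0.12). With the hepatocyte profile subtracted the 2 ratios were 0.03 and 0.06. The difference of these 2 genes in endothelial-like cells was therefore not kept on every scale. Timp2 was at 29.5 CPM (24.4 to 35.4) and 28.5 CPM (22.7 to 35.3) here, unlike in stellate cell-like cells. The share of cells with a Timp3 count was 80.6% and 80.0%, and 44.1% and 56.1% after thinning to 1500 counts.

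Both genes were higher in endothelial-like cells above the median for vascular endothelium genes than below it. Timp3 was at 684.1 and 833 CPM above and 221 and 376 CPM at or below, and Mmp14 at 156 and 251.2 CPM above and 112 and 151 CPM at or below. For genes of sinusoidal endothelium the same held on the CPM scale. Timp3 was at 591 and 811 CPM above the median and 298 and 456 CPM at or below. Mmp14 was at 262 and 311 CPM above and 96.8 and 136 CPM at or below. As a mean over cells of scaled counts, Timp3 was not higher above this median. It was at 5.74 and 7.95 above and 5.93 and 8.29 at or below. Mmp14 in this split, and both genes in the vascular split, were higher above the median on that scale too. Why the scales differ for Timp3 was not tested. Of the 8 listed genes with at least 20 counts in endothelial-like cells, Adam8, Mmp2, Mmp12 and Mmp13 were at least 2-fold lower in the library labelled AEG-1DMAC, against 5.66% of all genes, and none was 2-fold higher, against 1.44%. Adam8 had 12 and 65 counts, Mmp2 8 and 17, and Mmp13 7 and 24. Without the top cell of each library the log2 ratios were -2.93 for Adam8, -1.07 (-2.68 to 0.43) for Mmp2, -1.31 for Mmp12 and -1.88 for Mmp13. Macrophage markers summed to 2502 and 2513 CPM in endothelial-like cells, and their part in these values was not tested.

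**Figure D5:**
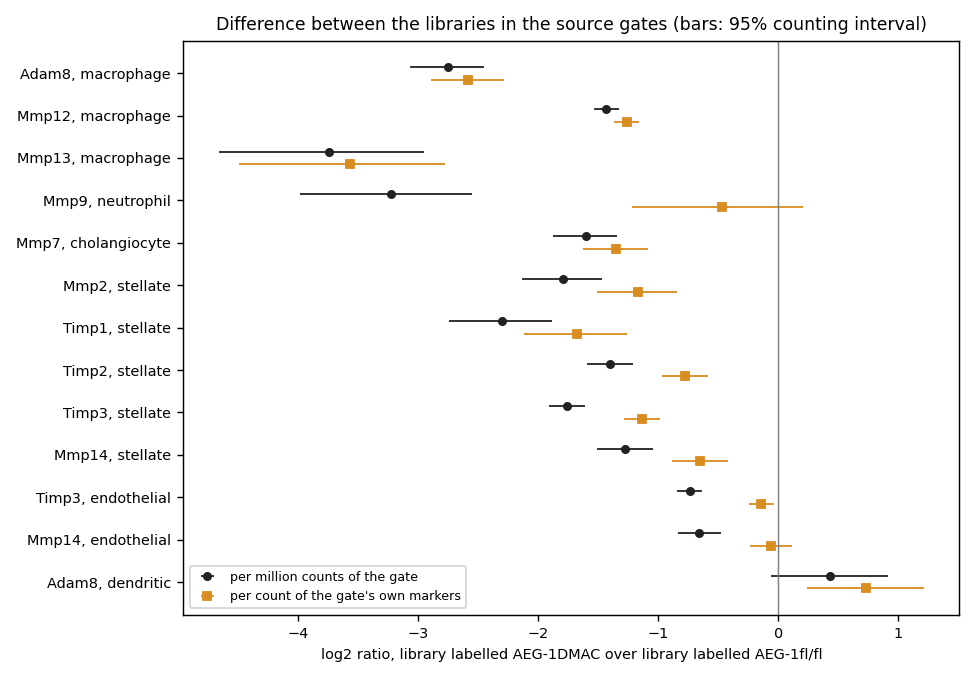
Log2 ratio of the library labelled AEG-1DMAC over the library labelled AEG-1fl/fl for each gene in its source gate and for Mmp14, Timp3 and Adam8 in a further gate, black on the CPM scale and orange per count of the gate's own markers, with 95% counting intervals. The orange points of Mmp9 (-0.47) and of Mmp14 in endothelial-like cells (-0.06) have intervals that reach 0.

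In the 4 gates that were the source of no listed gene, none was 2-fold higher in the library labelled AEG-1DMAC. Hepatocyte-like cells had all 10 genes past 20 counts, and Adam8, Mmp7, Mmp9 and Timp1 were at least 2-fold lower (background 3.12% lower and 2.14% higher). Mmp7 had only 4 and 20 counts. Without the top cell of each library, Mmp9 (-0.69, -1.59 to 0.17) and Timp1 (-0.95, -1.33 to -0.58) no longer passed 2-fold. Adam8 (-1.82) and Mmp7 (-2.53) still did. Timp3 was at 14.5 and 11.9 CPM in hepatocyte-like cells, a log2 ratio of 0.28 (0.14 to 0.43), and Timp2 at 6.06 and 6.03 CPM, with overlapping intervals. Markers of the 2 gates highest in Timp3 were higher in the same library too, at 160 and 96.8 CPM (endothelial) and 202 and 148 CPM (stellate). In B-like cells, Adam8, Mmp9, Mmp12, Timp1 and Timp2 were lower among 7 genes (background 5.79% lower and 2.38% higher). Adam8 had 1 and 23 counts and Mmp9 3 and 24, with no ratio left without the top cell of each library. Mmp12 (-1.75), Timp1 (-2.50, -5.66 to -0.43) and Timp2 (-2.88) stayed past 2-fold without it. Genes of stellate cell activation summed to 128 and 2001 CPM in B-like cells, and their part in these values was not tested. Dendritic-like cells had Mmp12, Timp2 and Timp3 lower among 5 (9.54% and 2.43%), where Timp3 had 1 and 48 counts, 40 of the 48 in 1 cell. Mmp12 had 2 and 55 counts there, and Timp2 3 and 21, a log2 ratio of -1.39 (-3.77 to 0.36). Macrophage markers summed to 1034 and 2826 CPM in dendritic-like cells, and their part in Mmp12 was not tested. T and NK-like cells had Adam8 lower among 6 (6.14% and 3.78%), with 5 and 26 counts, 15 of the 26 in 1 cell. Without the top cell of each library its log2 ratio was -1.32 (-3.80 to 0.60).

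Other proteases of the same pathways were read from lists by function. The plasminogen system generates the plasmin that activates several metalloproteinases. Plat, the tissue plasminogen activator, had 21.8 and 112 CPM in stellate cell-like cells, a log2 ratio of -2.36 (-2.79 to -1.95), while Plg, its substrate made by hepatocytes, had 1410 and 1214 CPM in hepatocyte-like cells, a log2 ratio of 0.22 (0.20 to 0.23). Of 11 ADAMTS proteases with enough counts in stellate cell-like cells, 4 were at least 2-fold lower in the library labelled AEG-1DMAC and none 2-fold higher, and Adamts5, an aggrecanase, had 33.5 and 105 CPM (log2 ratio -1.65, -2.01 to -1.30). Adamts3, a procollagen N-proteinase, had 34.6 and 32.8 CPM, a log2 ratio of 0.08 (-0.34 to 0.50). Among the other metalloproteinases, 2 of 7 were at least 2-fold lower in this gate, one of them Mmp23 with 48.3 and 124 CPM (log2 ratio -1.36, -1.66 to -1.06), whereas Mmp19 was highest in hepatocyte-like cells with 91.4 and 75.0 CPM, a log2 ratio of 0.29 (0.23 to 0.34).

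In the cathepsin and cystatin list, 2 of 11 genes were at least 2-fold lower in stellate cell-like cells. Ctsk, a collagen-cutting cathepsin, had 15.6 and 67.1 CPM (log2 ratio -2.11, -2.63 to -1.62), and Cst3, a cystatin that inhibits cathepsins, had 4907 and 4502 CPM in dendritic-like cells (log2 ratio 0.12, 0.03 to 0.22). Other ADAM proteases gave 1 of 7 (Adamdec1). Adam12 did not pass 2-fold, at 19.5 and 37.4 CPM in stellate cell-like cells, nor did Adam19, at 117 and 103 CPM in dendritic-like cells. Other inhibitors and activators gave 2 of 8. Htra1, a secreted serine protease, had 10.5 and 47.2 CPM in stellate cell-like cells, and Bsg, an inducer of metalloproteinases, 334 and 326 CPM in cholangiocyte-like cells. In macrophage-like cells, 1 of 5 other metalloproteinases, 2 of 7 ADAM proteases, 2 of 9 ADAMTS proteases, 2 of 11 cathepsins and cystatins and 1 of 6 other inhibitors were at least 2-fold lower in the library labelled AEG-1DMAC, and only Adamts4 was 2-fold higher. Over all genes, 3.81% were lower in macrophage-like cells and 9.51% in stellate cell-like cells, so a list with 1 gene lower in the latter is close to the background.

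The genes most like each listed gene were taken by Pearson correlation of log2(CPM + 5) over 18 points, the 9 gates of both libraries, which share cells, depth and normalization within a library. For Mmp12 they were Cndp2, Abhd12 and Trem2 (r = 0.95 for each), and for Adam8 they were Csf2rb2, Itgax and Gpr35 (0.92, 0.91 and 0.91). Mmp13 was closest to Dpep2, Tlr8 and Daglb (0.89, 0.85 and 0.85), Mmp9 to Tbx6, Pglyrp1 and Slfn1 (0.94, 0.93 and 0.91), and Mmp7 to Cldn6, Ugt8a and Cftr (0.996, 0.99 and 0.98). Cftr is a marker of the cholangiocyte gate, and Trem2 and Itgax belong to the Gpnmb program. Mmp2 was closest to Lamb1, Naalad2 and Cygb (0.95 for each), Timp1 to Cd248, Lum and Plat (0.92 for each), Timp2 to Clstn1, Ltbp3 and Jup (0.94, 0.90 and 0.89), Timp3 to Ltbp4, Cdr2l and Osmr (0.98, 0.98 and 0.97), and Mmp14 to Rhoc, Smad6 and Rhob (0.92, 0.90 and 0.90).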

How the data were processed

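Fixed liver cells of 1 library per genotype were profiled with the 10x probe-based assay. The authors counted probe reads per gene and cell with Cell Ranger (7.1.0 in the submitters' processing notes) on mm10, and deposited these raw counts. Here, a cell was kept if it had 100 or more genes and no more than 10% of its counts from mitochondrial genes. The score of a cell was the log2 ratio of its summed marker counts to those expected at its own total counts, with 1 added to each. The expected counts used the mean share of the markers over the 2 libraries. A cell entered a gate when its score was at least 1.5 log2 units, led the next class by 0.5 and came from at least 2 markers. Hepatocyte-like cells needed at least 5% of counts in hepatocyte markers and no other score of 1 or more. This scoring rule was set after the data were seen. No doublet caller was run. Counts were summed per gate and scaled to CPM, with exact Poisson intervals and, for ratios, exact binomial intervals given the sum (95%). Genes under 20 summed counts in a gate were left out of counts, and 2-fold was the limit used. There was no test, since each genotype has 1 library. The ratio and interval code was tested on simulated data. All listed genes, the 3 genes most like each, and the highest and lowest ratio of each pathway list (at least 50 counts, in the gate of highest level) plus genes of a listed gene's cluster are named. The listed genes, markers and pathway lists were chosen with earlier results of these data known. Counts over the plasminogen system list are not reported here. Python 3.11.15, NumPy 2.4.6, SciPy 1.17.1, pandas 2.3.3, matplotlib 3.10.9, R 4.3.3 and Seurat 5.3.0 were used.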

Additional observations from a re-analysis of the deposited data

Results flagged for a closer look

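Timp3 in hepatocyte-like cells had a log2 ratio of 0.28 (0.14 to 0.43), higher in the library labelled AEG-1DMAC, while in dendritic-like cells it was lower there, with 1 count against 48. Of these 48 counts 40 lay in 1 cell, and 8 were left without it. In hepatocyte-like cells, endothelial markers summed to 160 CPM in the library labelled AEG-1DMAC and 96.8 CPM in the other, and stellate cell markers to 202 and 148 CPM. Portal fibroblast markers went the other way there, at 20.9 and 30.2 CPM. The part of these markers in Timp3, and the difference between hepatocyte-like and dendritic-like cells, were not tested.

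Gates under 50 cells were in none of the comparisons, but 4 of the listed genes had high levels there. Portal fibroblast-like cells (17 in the library labelled AEG-1DMAC and 11 in the library labelled AEG-1fl/fl) had 178 CPM (133 to 234) and 186 CPM (121 to 275) of Mmp2, 144 and 149 CPM of Timp1, 305 and 328 CPM of Timp2, and 635 and 760 CPM (620 to 923) of Timp3. For each of these 4 genes the intervals of the libraries overlapped, unlike in stellate cell-like cells. Mesothelial-like cells (1 and 6 cells) had 158 and 354 CPM of Timp1 and 330 and 250.4 CPM of Timp2. Smooth muscle-like cells (4 and 1 cells) had 235 and 883 CPM of Timp2, a log2 ratio of -1.91 (-3.11 to -0.82), and 353 and 2049 CPM of Timp3, a log2 ratio of -2.54 (-3.45 to -1.71), the highest levels of these genes in any gate of the library labelled AEG-1fl/fl, from 1 cell.

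Among cells assigned to no gate, 1 cell of the library labelled AEG-1fl/fl held 2003 counts of Mmp12, which is 19.3% of that library's Mmp12 and 2.40% of the cell's 83603 counts. It also had 204 counts of Adam8, 642 of Gpnmb and 85 of Cd68, with 1 of Adgre1 and 0 of Mmp13 and Mtdh. Its macrophage score of 0.88 log2 units was under the limit of 1.5. The genes that led it against macrophage-like cells were Cav1, Ocstamp, Car2, S100a4, Fgfr1, S100a6, Anxa1, Tm4sf19, Wfs1 and Chst11. In the library labelled AEG-1DMAC, 1 unassigned cell held 24 counts of Mmp7, 13.6% of the library's Mmp7.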

How the results depend on the processing

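Of 13 log2 ratios, 10 in source gates and 3 in a further gate, all but that of Adam8 in dendritic-like cells were below 0, and these 12 stayed below 0 wherever an alternative gave a value, except Mmp14 and Timp3 in endothelial-like cells with the hepatocyte profile subtracted. Adam8 in dendritic-like cells fell below 0 under 2 alternatives. The values that moved beyond their counting interval were as follows, and the cause was not tested. With ratios centred on the median gene they were -0.41 for Mmp14 (endothelial), -1.15 for Timp2 (stellate), -0.49 for Timp3 (endothelial), -1.02 for Mmp14 (stellate) and -1.501 for Timp3 (stellate). As a mean over cells they were -2.37 for Adam8 (macrophage), -2.04 for Mmp9 (neutrophil), -1.15 for Mmp12 (macrophage), -0.47 for Mmp14 (endothelial), -1.76 for Timp1 (stellate), -1.05 for Timp2 (stellate), -0.47 for Timp3 (endothelial) and -1.26 for Timp3 (stellate). The stricter cell filter (500 genes, 5% mitochondrial) gave -0.85 for Timp3 (endothelial). Clusters in place of gates gave -3.26 for Adam8 (macrophage), -1.07 for Mmp2 (stellate), -1.57 for Mmp9 (neutrophil), -1.97 for Mmp12 (macrophage), -1.51 for Timp1 (stellate), -0.87 for Timp2 (stellate), -0.47 for Timp3 (endothelial) and -1.22 for Timp3 (stellate). A stricter gate gave -1.58 for Mmp9 (neutrophil), -0.98 for Mmp12 (macrophage), -0.44 for Mmp14 (endothelial), -1.52 for Timp1 (stellate), -1.13 for Timp2 (stellate), -0.60 for Timp3 (endothelial) and -1.52 for Timp3 (stellate). Subtracting the hepatocyte profile gave -2.30 for Adam8 (macrophage), -0.92 for Mmp2 (stellate), -2.46 for Mmp9 (neutrophil), -0.98 for Mmp12 (macrophage), 0.063 for Mmp14 (endothelial), -1.47 for Timp1 (stellate), -0.55 for Timp2 (stellate), 0.032 for Timp3 (endothelial), -0.59 for Mmp14 (stellate) and -0.94 for Timp3 (stellate). Chosen after seeing the data, leaving out the 5 cells with most counts gave -3.90 for Adam8 (macrophage), -2.12 for Mmp7 (cholangiocyte), -2.01 for Mmp12 (macrophage), -4.84 for Mmp13 (macrophage), -3.13 for Timp1 (stellate), -0.85 for Timp3 (endothelial) and -0.32 for Adam8 (dendritic). Also chosen then, leaving out cells above 3 times the median depth gave -2.31 for Adam8 (macrophage), -1.42 for Mmp2 (stellate), -2.20 for Mmp7 (cholangiocyte), -1.30 for Timp1 (stellate), -1.03 for Timp2 (stellate), -0.40 for Timp3 (endothelial) and -1.34 for Timp3 (stellate). Scaling per own marker count, likewise, gave -1.17 for Mmp2 (stellate), -0.47 for Mmp9 (neutrophil), -1.26 for Mmp12 (macrophage), -0.061 for Mmp14 (endothelial), -1.68 for Timp1 (stellate), -0.78 for Timp2 (stellate), -0.14 for Timp3 (endothelial), -0.65 for Mmp14 (stellate) and -1.13 for Timp3 (stellate). Adding unassigned cells, likewise, gave -1.94 for Mmp12 (macrophage), -1.21 for Timp2 (stellate), -1.56 for Timp3 (stellate) and -0.24 for Adam8 (dendritic). Leaving out the 1 cell with most counts, chosen after seeing the data too, gave -1.49 for Mmp12 (stellate) in place of -2.58, and no value for Timp3 (dendritic), which had 1 count in the library labelled AEG-1DMAC. Mmp7 had no value with the hepatocyte profile subtracted, since hepatocyte markers were higher in its gate than in hepatocyte-like cells, and Mmp9 none without its 5 top cells, since no count was left. The source gate changed, with a fold over the next gate of 0.80 for Adam8 by clusters, 0.75 for Adam8 by the stricter gate, 0.49 for Adam8 as a mean over cells, 0.89 for Mmp14 by clusters and 0.82 for Timp3 by clusters. Genes past 2-fold numbered, with at least 50 counts, 278 lower (macrophage), 146 higher (macrophage), 691 lower (stellate), 94 higher (stellate), 392 lower (endothelial), 2 listed genes lower (endothelial), 509 lower (cholangiocyte), 65 higher (cholangiocyte), 412 lower (neutrophil) and 75 higher (neutrophil). Genes past 2-fold numbered, with no count minimum, 1602 lower (macrophage), 893 higher (macrophage), 2484 lower (stellate), 628 higher (stellate), 1753 lower (endothelial), 776 higher (endothelial), 2408 lower (cholangiocyte), 5 listed genes lower (cholangiocyte), 595 higher (cholangiocyte), 2957 lower (neutrophil), 5 listed genes lower (neutrophil) and 1356 higher (neutrophil). Genes past 2-fold numbered, with median centring, 646 lower (stellate), 351 higher (stellate), 321 lower (endothelial), 353 higher (endothelial), 211 higher (cholangiocyte) and 375 higher (neutrophil). Pathway genes at least 2-fold lower became, with at least 50 counts, 0 of the other matrix metalloproteinases (macrophage), 1 of the other matrix metalloproteinases (stellate), 1 of the other ADAM proteases (macrophage), 0 of the other ADAM proteases (stellate), 0 of the ADAMTS proteases (macrophage) and 0 of the other inhibitors and activators (macrophage). Pathway genes at least 2-fold lower became, with median centring, 2 of the ADAMTS proteases (stellate) and 1 of the cathepsins and cystatins (stellate). As a mean over cells, the log2 ratios by Gpnmb score were -0.75 for Mmp12 below it, -0.065 for Mmp14 above it and -0.48 for Timp2 below it. Split at the upper quartile, the log2 ratios by Gpnmb score were -0.13 for Mmp12 above it, -1.03 for Mmp12 below it, -1.19 for Adam8 above it and 0.079 for Mmp14 above it. Thinning to 1500 counts moved the difference in the share of cells, in percentage points, to -12.4 for Adam8, -8.80 for Timp1 and -12.0 for Timp3. No paired analysis was possible because each genotype has 1 library, and no replicate could be left out.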
